A study of Homo sapiens with 18 samples.

Results

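The regions described here are the stretches of open chromatin at the genes of the VEGF ligands VEGFA, VEGFB and VEGFC, the receptors FLT1 and KDR, and the co-receptors NRP1 and NRP2. A region of the deposited table was taken when it overlapped 1 of these 7 genes, or 20 kb on either side of it, in the GENCODE annotation of build hg19 (GRCh37). This gave 65 of the 115087 regions, with 3 at VEGFA, 7 at VEGFB, 13 at VEGFC, 6 at FLT1, 2 at KDR, 15 at NRP1 and 19 at NRP2. Of these regions, 9 lay within 1 kb of a start site of the gene itself, 6 at the promoter of another gene, 38 elsewhere in the gene body and 12 in the flanks. They were 112 to 1503 bases wide and had a called peak in 2 to 17 libraries. Around the genes, the nearest regions not taken lay 20.9 to 46.2 kb from the gene.

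Open chromatin was profiled with ATAC-seq, where a transposase cuts and tags accessible DNA, in SCC1, SCC6 and SCC25, which are established lines of squamous carcinoma of the head and neck. Each line received cetuximab, an antibody that blocks EGFR, daily at 100 nM, or PBS as the untreated control, for 5 days. The files held 17 libraries, 3 in each of the 6 groups apart from SCC1 PBS, where replicates 1 and 3 were used and replicate 2 was not analysed here. Nothing in the labels says that replicates came from separate cultures, so p-values measure only the spread between these libraries, which may be technical.

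The signal of a region is the number of reads in it, multiplied by 1 scaling factor per library, and libraries held 2194851 to 15017130 such reads. Of 8 squamous epithelial marker genes, all had a promoter region in the table, with summed mean signals under PBS of 576 (SCC1), 728 (SCC6) and 638 (SCC25). Most of the SCC6 sum was KRT8, at 475. In SCC6 under PBS, the promoter regions of KRT14 (mean signal 1.66) and DSG3 (0.988) were near the lowest value the table holds. KRT5 (21.4), KRT6A (9.73) and TP63 (18.5) were also lower there than in SCC1 (56.1, 34.3 and 37.3) and SCC25 (73.4, 72.4 and 36.4). KRT8, CDH1 and EPCAM had their highest PBS mean in SCC6. Of 8 endothelial marker genes, 1 (ESAM) had a promoter region in the table, and PECAM1 and CDH5 had none. Mean PBS signals at ESAM were 61.3 (SCC1), 91.6 (SCC6) and 84.3 (SCC25). Of 6 fibroblast marker genes 3 had a region, among them COL1A1 (101, 107 and 130 in the same order). Of 6 leukocyte marker genes 2 had one, among them CD68 (113, 79.8 and 136). The log2 change is cetuximab minus PBS on the log2 of the signal plus 1, and a region passed the test when its limma p-value, adjusted over all tested regions by the Benjamini-Hochberg method, was under 0.05. These are bulk libraries, so fewer cells with an open region and less opening per cell cannot be told apart.

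VEGF ligands are secreted growth factors that drive the growth of blood vessels (VEGFA), support vascular and other cells (VEGFB) or drive the growth of lymphatic vessels (VEGFC). FLT1 (VEGFR1) binds VEGFA and VEGFB with high affinity and acts largely as a decoy, and KDR (VEGFR2) is the main signalling receptor of endothelial cells. NRP1 and NRP2 lack kinase activity of their own and serve as co-receptors for VEGF and, with plexins, for class 3 semaphorins, and squamous carcinoma cells can carry neuropilins without carrying endothelial receptors.

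The sequences shown first are those of the regions on which the results turn, on the plus strand of hg19. For NRP2, which lies on chromosome 2 (206546714 to 206662857, plus strand), they are stretches of 101 bases from the 5 regions with the smallest adjusted p in SCC6, named by the distance of the region's centre from the canonical start. Capitals mark AP-1 sites (TGANTCA, searched on both strands), and the stretch at 93.1 kb holds none. The stretch at 18.4 kb is at chr2:206565716-206565816 in an exon of a transcript with no defined coding sequence. The others lie in introns at chr2:206611197-206611297 (64.0 kb), chr2:206613496-206613596 (66.4 kb, within 1 kb of the start of a shorter NRP2 transcript), chr2:206619706-206619806 (72.5 kb) and chr2:206640267-206640367 (93.1 kb). The first and last rose after cetuximab in SCC6 and the other three fell.
NRP2 18.4 kb: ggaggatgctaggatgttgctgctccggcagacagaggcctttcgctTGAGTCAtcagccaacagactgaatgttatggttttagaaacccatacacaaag
NRP2 64.0 kb: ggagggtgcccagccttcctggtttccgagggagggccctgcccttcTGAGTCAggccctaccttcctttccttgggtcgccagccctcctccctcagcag
NRP2 66.4 kb: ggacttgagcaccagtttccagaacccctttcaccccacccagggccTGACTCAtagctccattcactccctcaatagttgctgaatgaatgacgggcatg
NRP2 72.5 kb: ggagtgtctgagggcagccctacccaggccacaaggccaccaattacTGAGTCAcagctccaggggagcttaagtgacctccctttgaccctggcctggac
NRP2 93.1 kb: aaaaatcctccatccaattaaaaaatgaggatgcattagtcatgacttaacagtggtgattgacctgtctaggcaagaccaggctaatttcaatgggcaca

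At the ligands, the stretches are from the VEGFB promoter region (chr11:64001760-64001840, upstream) and an intron of VEGFC (chr4:177690873-177690973, a gene on the minus strand). The VEGFB region also lies within 1 kb of a DNAJC4 start site. Capitals mark a TFAP2 site (GCCNNNGGC, both strands) at VEGFB, and 2 AP-1 sites at VEGFC. TFAP2A is a transcription factor that the study followed in these lines, and the TFAP2 match shares no bases with an SP1 box (GGGCGG). For FLT1, also on the minus strand, the stretch is from the intronic region that rose in SCC6 (chr13:28883881-28883981) and holds no AP-1 or TFAP2 site.
VEGFB promoter: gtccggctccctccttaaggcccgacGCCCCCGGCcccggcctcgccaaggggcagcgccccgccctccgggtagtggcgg
VEGFC 23.2 kb: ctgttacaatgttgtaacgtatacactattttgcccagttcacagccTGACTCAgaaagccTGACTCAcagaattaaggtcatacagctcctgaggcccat
FLT1 185.3 kb: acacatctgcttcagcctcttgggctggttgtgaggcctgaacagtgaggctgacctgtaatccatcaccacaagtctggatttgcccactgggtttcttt

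TFAP2 letters stood in the promoter windows (250 bases before to 50 after the canonical start) of VEGFB (2 matches) and FLT1 (2), and in 29.8% of 19818 windows of coding genes. No window of VEGFB, VEGFC, FLT1, KDR, NRP1 or NRP2 held the AP-1 letters, which stood in 5.42% of windows, or the core of the hypoxia response element (ACGTG), which stood in 23.4%. The SP1 box (61.5% of windows) stood in those of the same genes except NRP1. Among the 7 NRP2 regions that changed in SCC6, of 253 to 522 bases, 6 held an AP-1 site, those that rose (18.4, 52.1 and 87.2 kb) as well as those that fell (64.0, 66.4 and 72.5 kb). The same letters stood in 50.02% of 36222 regions of 250 to 550 bases away from coding start sites. These matches describe the sequence only.

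The first question was whether 5 days of EGFR blockade changed accessibility at these genes in each line. In SCC6, 11 of the 49 regions that passed the filter on low signal changed, 8 upward and 3 downward, and 27.5% of all tested regions passed the test in this line. A share of 11 of 49 (22.4%) is near that background. Of the 65 regions, 16 were too low in SCC6 to be tested. The split between directions depended on scaling, with 6 higher and 7 lower after centring each library on its median, 7 and 7 with edgeR, and 6 and 6 with DESeq2. Centring moved every log2 change in SCC6 by -0.17 and in SCC1 by 0.19.

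In SCC1, 2 of 53 tested regions changed, both upward and both at promoters of neighbours of VEGFB, against 11.1% of all tested regions. In SCC25, limma passed 0 of 54 tested regions, against 0.315% of all tested regions. edgeR and DESeq2 also passed 0 there, and 4 of the 54 had an unadjusted p under 0.05, against 11405 of all 86315 tested regions. Tested member regions had a median log2 change of -0.04 (SCC1), 0.08 (SCC6) and -0.16 (SCC25), and all tested regions one of -0.09, 0.11 and -0.08.

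**Figure D1:**
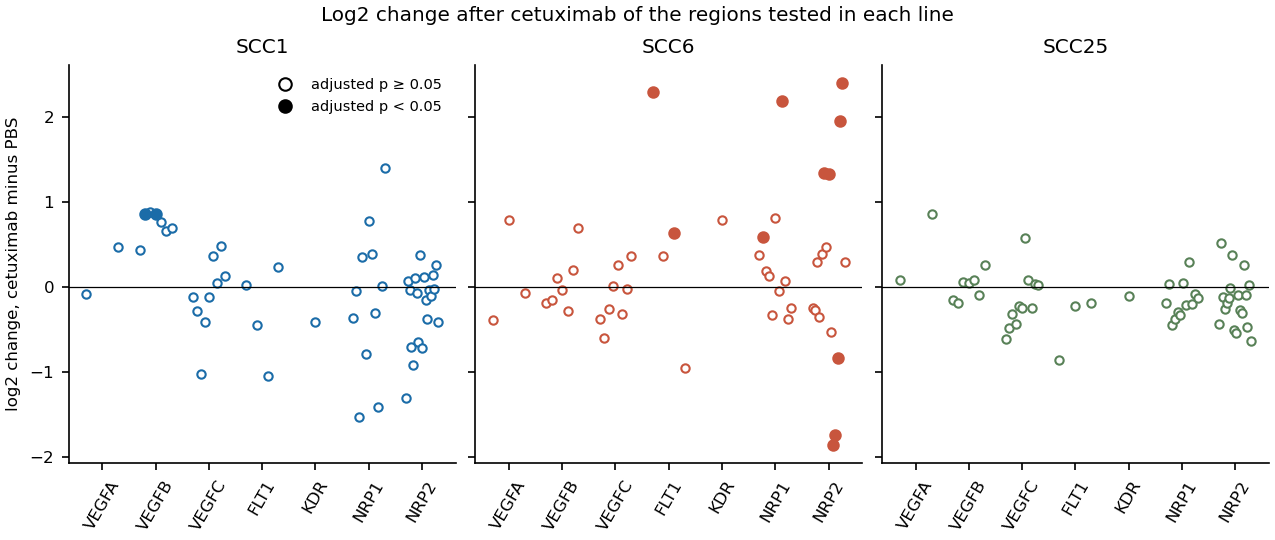
Log2 change (cetuximab minus PBS, vertical axis) of each tested region, grouped by gene, in SCC1, SCC6 and SCC25. Filled points passed the test (adjusted p under 0.05). Filled points number 2 in SCC1, 11 in SCC6 (7 of them at NRP2) and 0 in SCC25.

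Among the ligands, no promoter region passed the test in any line. The VEGFA promoter region (chromosome 6, 43737364 to 43737964, reaching into the UTR of exon 1) had a signal of 129 and 93.8 in the PBS libraries of SCC1 and of 113, 81.8 and 121 after cetuximab. The SCC6 libraries were at 105, 119 and 100.1 under PBS and at 74.8, 79.8 and 92.6 after cetuximab. In SCC25 it was 80.3, 64.9 and 90.8 under PBS and 91.4, 74.9 and 83.2 after cetuximab. Only in SCC6 did the groups not overlap, with every treated library below every PBS library, and the adjusted p of 0.0813 there missed the threshold. It passed in 4 of 17 alternatives, and the difference of the change between lines did not (adjusted p = 0.440).

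The VEGFA gene has 2 more regions, both downstream of it. The one 28.8 kb from the start (chromosome 6, 43766540 to 43766935) had a signal of 19.6, 18 and 17.8 in the PBS libraries of SCC25 and of 25.3, 44.9 and 35.4 after cetuximab. The treated libraries lay above the PBS libraries, with a log2 change of 0.86 ± 0.31 (SE). This was the smallest adjusted p of the members in SCC25 (0.226), and it did not pass. The other, at 18.7 kb, was open in SCC6 alone and is described with regions of its kind.

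At VEGFB the own promoter region (chromosome 11, 64001760 to 64001956) also lay within 1 kb of a DNAJC4 start site. A peak was called in it in 2 of 17 libraries, 1 treated and 1 PBS library of SCC25. It had a low signal, at 10.4 and 6.7 in the PBS libraries of SCC1 and at 10.2, 19.5 and 21.9 after cetuximab. The log2 change of 0.89 ± 0.64 had an adjusted p of 0.421. In SCC6 and SCC25 the log2 changes were 0.11 and 0.06. VEGFB is a short gene (4.681 kb) among other short genes, and the other 6 regions in its window lay at promoters of NUDT22, DNAJC4, TRPT1, FKBP2, PPP1R14B and PLCB3.

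The only member with a peak in all 17 libraries was the promoter region of FKBP2, a peptidyl-prolyl isomerase gene 6.6 kb from the VEGFB start (chromosome 11, 64007914 to 64009416). In SCC1 its signal was 272 and 240.1 under PBS and 476, 376 and 567 after cetuximab. The groups did not overlap, and the log2 change was 0.86 ± 0.16 (adjusted p = 1.16e-05). In SCC6 (313 to 349 under PBS, 311 to 342 after cetuximab) and SCC25 (572 to 596 and 506 to 737) the log2 changes were -0.03 and 0.05, and the change differed between lines (adjusted p = 0.00217).

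The region shared by the promoters of DNAJC4 and NUDT22, 4.1 kb upstream of VEGFB, also rose in SCC1, from 44.2 and 52.5 to 107, 66.2 and 97. The log2 change was 0.86 ± 0.29 (adjusted p = 0.0338), and the difference between lines passed as well (adjusted p = 0.0254). All 7 regions of the VEGFB window had a positive log2 change in SCC1 (0.43 to 0.89), and the 231 tested regions within 2 Mb around the window had a median of 0.61, with 33.3% passing the test. With the trend of signal with GC content removed in each library, both calls were lost (FKBP2 log2 change 0.50, adjusted p = 0.157, and DNAJC4 0.53, adjusted p = 0.476). The call at DNAJC4 was also lost without either PBS library of SCC1 or without cetuximab replicate 1 or 3.

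VEGFC had its promoter region (chromosome 4, 177713706 to 177714276) open in all lines. Its signal in SCC1 was 29.9 and 67 under PBS and 66, 38.9 and 98.6 after cetuximab. The SCC6 libraries stood at 59.2, 51.5 and 47.9 under PBS and 46.5, 35.3 and 46.3 after cetuximab. The log2 changes were 0.49 ± 0.32, -0.31 ± 0.24 and, in SCC25, 0.04 ± 0.19, none of which passed. In SCC6 alone the groups did not overlap.

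**Figure D2:**
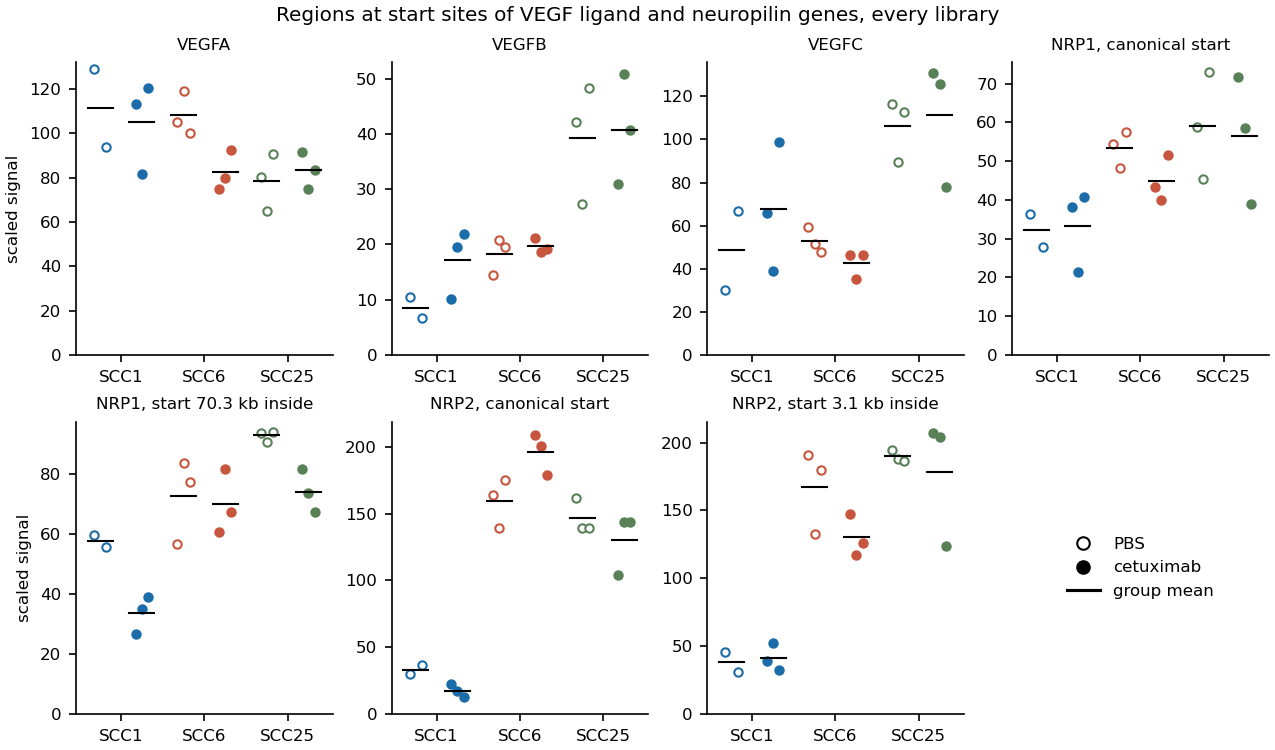
Scaled signal (vertical axis) in every library at the start sites of VEGFA, VEGFB, VEGFC, NRP1 and NRP2, with open points for PBS, filled points for cetuximab and bars for group means. The NRP2 canonical start sits at 29.9 and 36.8 in SCC1 PBS and at 139 to 175 in the PBS libraries of SCC6 and SCC25.

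An intronic VEGFC region 23.2 kb from the start (chromosome 4, 177690710 to 177691052, with the 2 AP-1 sites above) had a negative log2 change in every line. Its signal was 46.8 and 32.4 under PBS and 17.8, 23.4 and 15.6 after cetuximab in SCC1. In SCC6 it was 19.3, 27.4 and 14.1 under PBS and 9.09, 11.1 and 19.5 after cetuximab. In SCC25 it was 136, 98.1 and 106 under PBS and 87.2, 75.5 and 86.8 after cetuximab. The groups overlapped in SCC6 and not in the other lines. In the fit over all lines, the log2 change was -0.66 ± 0.19 (adjusted p = 0.0272).

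That fit asked for a mean change over the lines, and 7 of 50 tested member regions passed (3 higher, 4 lower), against 12.2% of all tested regions. Beside VEGFC at 23.2 kb they were the promoter of PLCB3, a phospholipase gene in the VEGFB window (log2 change 0.54 ± 0.15, adjusted p = 0.0184), an intronic FLT1 region at 18.8 kb (-0.71 ± 0.24, adjusted p = 0.0496), and 4 NRP2 regions. The NRP2 regions were at 2.6 kb upstream (-0.38 ± 0.12, adjusted p = 0.0333), 18.4 kb (0.72 ± 0.17, adjusted p = 0.00870), 64.0 kb (-0.86 ± 0.23, adjusted p = 0.0147) and 93.1 kb (0.94 ± 0.30, adjusted p = 0.0393). At 64.0 and 93.1 kb the change also differed between lines (adjusted p = 0.00906 and 0.00113), and at 93.1 kb SCC6 had a log2 change of 2.40, SCC1 one of 0.26 and SCC25 one of 0.03. Of these 7, the NRP2 region at 18.4 kb was the only one that passed in every alternative run. The call at PLCB3 was lost with the GC trend removed (adjusted p = 0.140). The call at VEGFC 23.2 kb was lost without SCC1 PBS replicate 1, SCC6 cetuximab replicate 1, SCC6 PBS replicate 2 or SCC25 PBS replicate 1 (adjusted p = 0.0526 to 0.0716). The call 2.6 kb upstream of NRP2 was lost without either SCC1 PBS library, SCC6 cetuximab replicate 2, SCC6 PBS replicate 1 or SCC25 cetuximab replicate 3 (0.0522 to 0.0760), and that at 93.1 kb without any 1 of the 6 SCC6 libraries, SCC1 PBS replicate 1 or SCC1 cetuximab replicate 2 (0.0633 to 0.0875).

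Neither receptor gene, FLT1 or KDR, had a region within 1 kb of any of its start sites. The largest receptor change was in an intron far inside FLT1 (185.3 kb from the start, chromosome 13, 28883783 to 28884079). In SCC6 its signal was 6.04, 4.68 and 13.1 under PBS (5, 7 and 12 reads) and 48.5, 30.6 and 41 after cetuximab. Every treated library was above every PBS library, and a peak was called in 0 of 3 PBS and 3 of 3 treated libraries. The log2 change was 2.29 ± 0.37 (adjusted p = 4.16e-06) and passed in all 17 alternatives.

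In the other lines the same FLT1 region was open without treatment. It stood at 52 and 35.7 under PBS and 35.5, 46.7 and 51.6 after cetuximab in SCC1, where the groups overlapped. In SCC25 it was at 38.4, 33.2 and 42.4 under PBS and at 26.7, 35.2 and 8.86 after cetuximab, a log2 change of -0.86 ± 0.37 that did not pass (adjusted p = 0.309). The change differed between the lines (interaction adjusted p = 0.000915), and after cetuximab the mean of SCC6 (40.0 ± 8.96, SD, n = 3) was close to the PBS means of SCC1 (43.9) and SCC25 (38).

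The FLT1 region at 18.8 kb, which passed over all lines, had a signal of 20.8 and 31.3 under PBS and 10.2, 17.5 and 9.39 after cetuximab in SCC1. SCC6 had 14.5, 21.4 and 29.4 under PBS and 11.1, 10.2 and 9.92 after cetuximab, and in SCC25 it was 22.4 to 27.1 and 15.9 to 26.7. The groups overlapped only in SCC25. This call was lost in 17 of 27 alternatives, among them the loss of any 1 of the 3 treated SCC6 libraries (adjusted p = 0.0753 to 0.0835) or of either SCC1 PBS library (0.0694 and 0.112).

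KDR had 2 regions. The one downstream of the gene (chromosome 4, 55938170 to 55938494) had a signal of 159 and 131 under PBS and 131, 111 and 87.6 after cetuximab in SCC1, a log2 change of -0.41 ± 0.24 (adjusted p = 0.284). In SCC6 it was at 2.64 to 15.4 over all 6 libraries, too low to be tested there, and in SCC25 at 14.3 to 29.7. A region in coding exon 11, 18.9 kb from the start was open in SCC6 alone. No KDR region passed a test of treatment in any line.

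Among the co-receptors, NRP1 had 2 start regions, and neither passed in any line. At the canonical start (chromosome 10, 33623953 to 33624362, chosen after its values were seen) the log2 changes were 0.01 in SCC1, -0.25 in SCC6 and -0.08 in SCC25. At the start 70.3 kb inside the gene (33553137 to 33553515) the signal in SCC1 was 59.8 and 55.8 under PBS and 26.7, 35 and 39.1 after cetuximab. These groups did not overlap, and the log2 change of -0.78 ± 0.36 did not pass (adjusted p = 0.151). In SCC6 the groups overlapped (56.8 to 83.6 and 60.6 to 81.7), with a log2 change of -0.04.

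In SCC6, 2 intronic NRP1 regions rose. At 96.6 kb (chromosome 10, 33526809 to 33527259) the signal was 65.2, 61.6 and 53.3 under PBS and 98, 95.6 and 79.7 after cetuximab, a log2 change of 0.59 ± 0.19 (adjusted p = 0.0179). At 57.4 kb (33566160 to 33566305) it was 2.42, 3.35 and 2.18 under PBS, or 2 to 5 reads, and 8.08, 27.9 and 16.2 after cetuximab. The log2 change there was 2.19 ± 0.59 (adjusted p = 0.00393). Neither pair of groups overlapped, and the difference between lines did not pass at 96.6 kb (adjusted p = 0.280) and could not be tested at 57.4 kb. The call at 96.6 kb was lost in 7 of 17 alternatives, among them the loss of SCC6 PBS replicate 3 (adjusted p = 0.0748) and of cetuximab replicate 1 or 2.

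NRP2 held 7 of the 11 member regions that changed in SCC6, out of 15 tested there. In the 126 tested regions within 2 Mb around the NRP2 window, 35.7% passed in the same comparison. Within the gene both directions occurred, with 4 regions higher and 3 lower. The regions that fell lay next to each other, between 64.0 and 72.5 kb from the canonical start, with regions that rose further out on both sides.

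The region at 18.4 kb (chromosome 2, 206565363 to 206565884) had a signal of 119.6, 118 and 116 under PBS and 294, 325 and 287 after cetuximab in SCC6. Its log2 change was 1.35 ± 0.12 (adjusted p = 1.26e-12), the smallest p of any member. The SCC25 libraries were at 61.9 to 86.5 under PBS and at 80.1 to 117 after cetuximab, and the log2 change of 0.38 ± 0.19 did not pass (adjusted p = 0.406). In SCC1 it was barely open, at 4.47 to 11 in all libraries. The difference between the lines did not pass here (adjusted p = 0.0682).

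The region at 93.1 kb (206640071 to 206640563) had the largest log2 change of any member. In SCC6 its signal was 29, 15.4 and 26.1 under PBS and 123, 136 and 114 after cetuximab. The log2 change was 2.40 ± 0.23 (adjusted p = 2.81e-11), and a peak was called in 0 of 3 PBS and 3 of 3 treated libraries. In SCC25 the region was open in both groups, at 163, 144 and 131 under PBS and 139, 178 and 133 after cetuximab, and the change differed between lines (adjusted p = 0.00113). After cetuximab the level in SCC6 (124 ± 10.9, SD, n = 3) came near that of SCC25 under PBS (146 ± 15.8, n = 3).

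The regions at 64.0 and 66.4 kb fell. At 64.0 kb (206611063 to 206611375) the signal in SCC6 was 132, 129 and 132 under PBS and 44.4, 32.5 and 30.7 after cetuximab, a log2 change of -1.86 ± 0.20 (adjusted p = 5.52e-10). At 66.4 kb (206613391 to 206613889), beside the start of a shorter NRP2 transcript, it was 157, 132 and 147 under PBS and 49.5, 34.4 and 46 after cetuximab, a log2 change of -1.74 ± 0.19 (adjusted p = 5.52e-10). In SCC25 these regions stood at 105, 99.5 and 78 and at 158, 159 and 140.0 under PBS, with log2 changes of -0.27 and -0.30 that did not pass. The change differed between lines at both, with adjusted p = 0.00906 at 64.0 kb and 0.0379 at 66.4 kb, and the second passed in 12 of 25 alternatives.

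**Figure D3:**
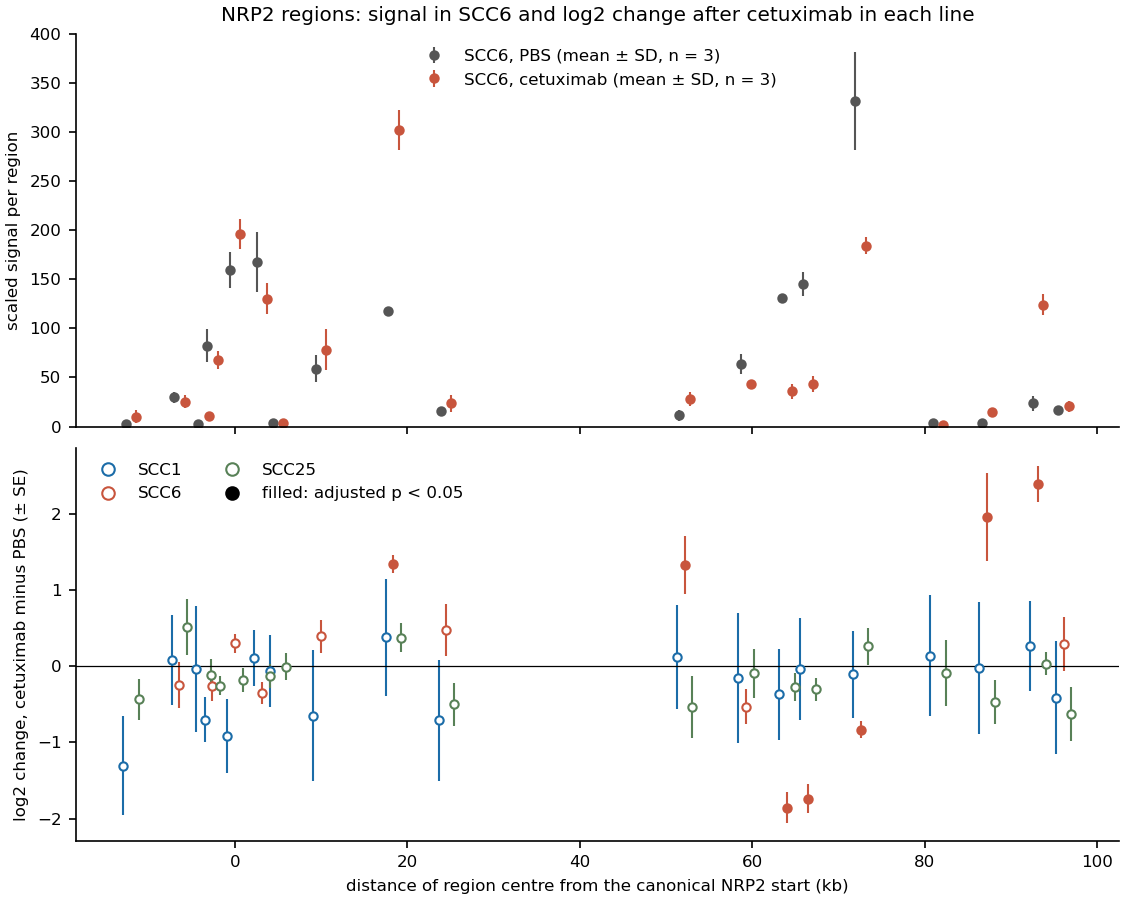
NRP2 regions by distance from the canonical start (horizontal axis, kb), with the scaled signal in SCC6 above (mean ± SD) and the log2 change in each line below (± SE, filled where adjusted p was under 0.05). In SCC6 the log2 change is 1.35 at 18.4 kb, -1.86 at 64.0 kb, -1.74 at 66.4 kb and 2.40 at 93.1 kb.

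At 72.5 kb (206619500 to 206620016) stood the NRP2 region with the most signal per kb in SCC6 under PBS (641). Its signal was 350.4, 369 and 275 under PBS and 188, 190.3 and 174 after cetuximab, a log2 change of -0.83 ± 0.11 (adjusted p = 6.10e-08). In SCC25 it was 50.5, 39.7 and 42.4 under PBS and 64.7, 58.6 and 39 after cetuximab, where the groups overlapped. The test of the difference between lines did not pass (adjusted p = 0.125).

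The remaining changed NRP2 regions, named because they complete the 7 and not by the rule for named regions, were low. At 52.1 kb the signal in SCC6 rose from 15.7, 12.7 and 5.44 to 33.3, 20.4 and 30.7 (log2 change 1.33 ± 0.38, adjusted p = 0.00637). Without SCC6 PBS replicate 3, the lowest library, this call was lost (adjusted p = 0.0616). At 87.2 kb it rose from 2.42, 2.01 and 5.44, or 2 to 5 reads, to 19.2, 13.9 and 11.9 (log2 change 1.96 ± 0.57, adjusted p = 0.00809). In SCC25 the latter stood at 30.3 to 41.8 under PBS and 19.7 to 28.3 after cetuximab, and the change differed between lines (adjusted p = 0.0217).

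**Figure D4:**
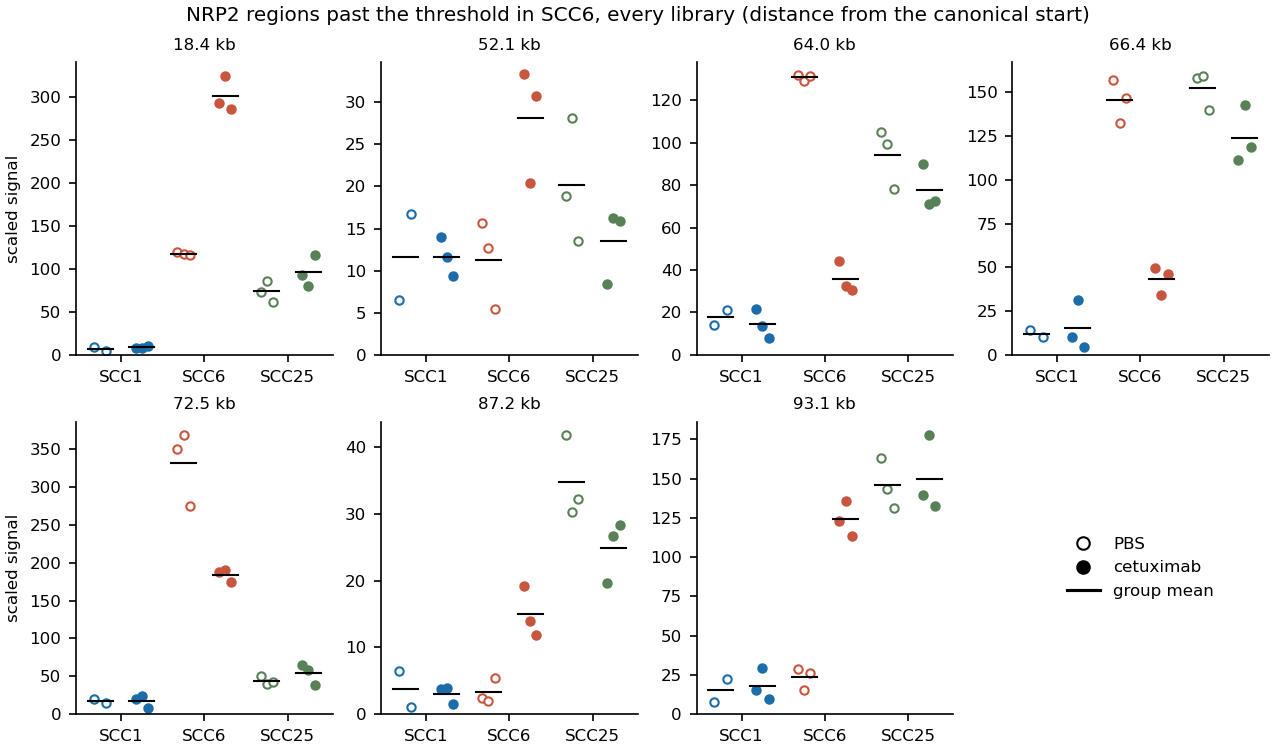
Scaled signal (vertical axis) in every library at the 7 NRP2 regions that changed in SCC6, with open points for PBS, filled points for cetuximab and bars for group means. At 93.1 kb the SCC6 libraries sit at 15.4 to 29 under PBS and at 114 to 136 after cetuximab, and the regions were chosen for passing in SCC6.

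At the canonical start of NRP2 and the start 3.1 kb inside it, no region passed within any single line. The region at the canonical start (206547029 to 206547514, not among those named by rule) had a signal of 164, 139 and 175 under PBS and 209, 201 and 179 after cetuximab in SCC6, where the treated libraries lay above the PBS libraries. The log2 change was 0.30 ± 0.13 (adjusted p = 0.0686). In SCC1 the signal was 29.9 and 36.8 under PBS and 22.8, 17.5 and 12.5 after cetuximab, with a log2 change of -0.92 ± 0.48 (adjusted p = 0.228). The groups did not overlap in either line, the directions were opposite, and the test of the difference between lines passed (adjusted p = 0.0181). The tested regions within 2 Mb around the NRP2 window had a median log2 change of -0.44 in SCC1 and 0.07 in SCC6.

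The start region 3.1 kb inside NRP2 (206550042 to 206550692), which had the highest signal of its start regions, was at 191, 132 and 179 under PBS and 147, 117 and 126 after cetuximab in SCC6. The groups overlapped, and the log2 change was -0.35 ± 0.14 (adjusted p = 0.0616). It passed in 5 of 17 alternatives. In SCC25 it was at 194, 188 and 187 under PBS and 207, 204 and 124 after cetuximab, with a log2 change of -0.13.

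The test of whether the change differed between the lines passed for 9 of 50 tested member regions, against 13.2% of all tested regions. They were 6 regions of NRP2 (12.0 kb upstream, the canonical start, and those at 64.0, 66.4, 87.2 and 93.1 kb) and 1 of FLT1 (185.3 kb). In the VEGFB window they were the FKBP2 promoter and the region shared by the promoters of DNAJC4 and NUDT22. The region 12.0 kb upstream of NRP2, also named after its values were seen, was at 22.1 and 22.3 under PBS and 17.8, 9.73 and 3.13 after cetuximab in SCC1. SCC6 stood at 1.09 to 3.62 under PBS and 2.79 to 15.2 after cetuximab, and in SCC25 at 29.7 to 49 and 28.1 to 33.6.

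The next question was how the lines differed without treatment. Between the PBS libraries, 27 of 51 tested member regions differed between SCC6 and SCC1 (61.2% of all tested regions), 39 of 51 between SCC25 and SCC1 (51.3%) and 37 of 51 between SCC25 and SCC6 (68.7%). Most of the differences with SCC25 were upward, with 35 of the 39 higher than in SCC1 and 28 of the 37 higher than in SCC6. Over the whole table, 24364 of the 44291 regions that differed were higher in SCC25 than in SCC1, and 31638 of 59309 were higher than in SCC6. The median log2 difference of the tested members was 0.26 for SCC6 minus SCC1, 1.24 for SCC25 minus SCC1 and 0.81 for SCC25 minus SCC6, and that of all tested regions was -0.06, -0.04 and 0.06. These comparisons share libraries, and differences in copy number between the lines were not tested, so the medians of regions within 2 Mb of each gene are given beside the results.

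Per kb, the promoter regions stood in a different order in each line under PBS. In SCC1 the signal per kb was highest at VEGFA (156 to 214), then NRP1 at its inner start (147 to 158), VEGFC (52.4 to 117), NRP2 (48.0 to 69.9) and VEGFB (34.0 to 52.8), and only the NRP1 and VEGFC ranges did not overlap between neighbours. In SCC6 it was highest at NRP2 (204 to 293), followed by NRP1 (149.8 to 221) and VEGFA (166 to 198), whose ranges overlapped, and by VEGFB (73.6 to 105) and VEGFC (83.8 to 104) below them. In SCC25 the order was NRP2 (287 to 299), NRP1 (239.7 to 248), VEGFB (139 to 245), VEGFC (157 to 204) and VEGFA (108 to 151), and the ranges were apart between NRP2 and NRP1 and between VEGFC and VEGFA.

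**Figure D5:**
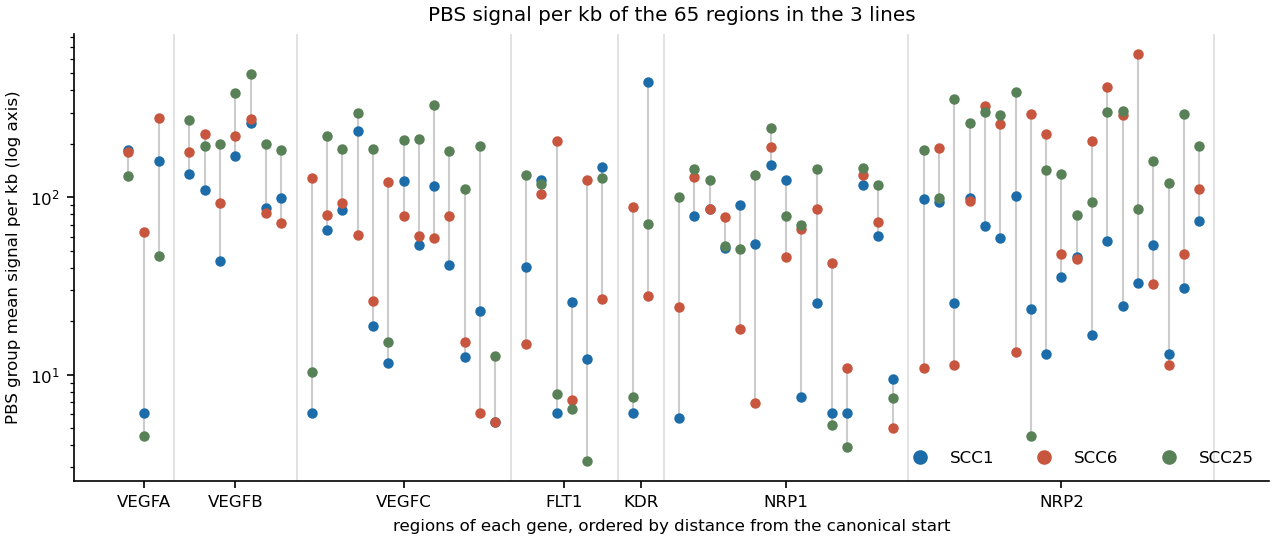
Mean signal per kb of the PBS libraries (vertical log axis) of all 65 regions, grouped by gene and ordered by distance from the start, with 1 point per line. At NRP2, SCC6 and SCC25 lie above SCC1 at most regions, and the KDR region at 445 per kb in SCC1 stands at 27.6 in SCC6 and 70.6 in SCC25.

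The VEGFA promoter was lower in SCC25 than in SCC6 (log2 difference -0.46 ± 0.17, adjusted p = 0.0255) and SCC1 (-0.49 ± 0.19, adjusted p = 0.0432), and the nearby medians were -0.31 and -0.22. The VEGFA region 28.8 kb downstream of the start stood at 95.4, 108 and 127 in SCC6 PBS and at 17.8 to 19.6 in SCC25 PBS. The log2 difference was -2.50 ± 0.21 (adjusted p = 4.52e-08). SCC1, at 52 and 74.8, was between the other lines and overlapped neither.

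At VEGFB all 7 regions were higher in SCC25 than in SCC1, by a log2 difference of 0.81 to 2.07. The median near the gene was 0.50, and 6 of the 7 regions lay at promoters of other genes. All 7 passed, beside 51.3% of all tested regions and 52.0% of those near the gene. The VEGFB promoter had the largest difference, with 42.2, 27.4 and 48.4 in SCC25 PBS and 10.4 and 6.7 in SCC1 PBS (log2 difference 2.07 ± 0.38, adjusted p = 0.000347). SCC6, at 14.5, 20.7 and 19.6, was between the other lines.

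At VEGFC all 9 tested regions were higher in SCC25 than in SCC6, by a log2 difference of 0.99 to 4.49. The median of the 111 regions near the gene was 1.57, with 85.6% passing, and 68.7% of all tested regions passed. Of the 4 VEGFC regions too low to be tested, those at 12.2 kb and 11.8 kb upstream had a higher mean in SCC6 PBS (24.5 and 25.6) than in SCC25 PBS (3.06 and 2.06), and those at 57.4 and 100.3 kb a lower one (3.05 and 1.21 against 22.3 and 2.82). The largest was in an intron 83.8 kb from the start (chromosome 4, 177630115 to 177630422), with 58.4, 62 and 59.4 in SCC25 PBS and 1.21, 3.35 and 1.09 in SCC6 PBS. The log2 difference was 4.49 ± 0.56 (adjusted p = 3.27e-06). In SCC1 PBS it was at 13 and 1.12, so these libraries differed widely from each other. The most accessible VEGFC region per kb outside the promoter, at 2.8 kb, stood at 42.9 and 32.4 in SCC1, at 8.46, 15.4 and 5.44 in SCC6 and at 47.9, 49.8 and 45 in SCC25. SCC6 alone was low there.

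For the receptors, the KDR region 53.4 kb from the start stood apart in SCC1. Its PBS signal was 159 and 131 there, 6.04, 15.4 and 5.44 in SCC6 and 21.1, 18 and 29.7 in SCC25. The log2 difference was -4.00 ± 0.41 for SCC6 minus SCC1 (adjusted p = 4.84e-07) and -2.63 ± 0.41 for SCC25 minus SCC1 (adjusted p = 7.40e-05), with nearby medians of -0.49 and -0.14. At FLT1, the intronic region at 185.3 kb was lower in SCC6 than in SCC1 (-2.42 ± 0.41, adjusted p = 9.38e-05), and the nearby median was -0.00.

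At NRP1 the largest difference was at 61.1 kb (chromosome 10, 33562261 to 33562635), with 52.4, 54.1 and 44.1 in SCC25 PBS, 22.1 and 19 in SCC1 PBS and 1.21, 3.35 and 3.26 in SCC6 PBS. The 3 lines did not overlap, and SCC25 minus SCC6 was 3.89 ± 0.39 (adjusted p = 2.87e-07). The nearby median was 0.42. Of 10 tested NRP1 regions, 6 were higher in SCC25 than in SCC1 and 0 lower, with a nearby median of 0.66. In that comparison, 51.3% of all tested regions and 56.1% of those near NRP1 passed.

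At NRP2, 14 of 18 tested regions were higher and 1 lower in SCC25 than in SCC1, 9 were higher and 2 lower in SCC6 than in SCC1, and the nearby medians were -0.14 and 0.09. Between SCC25 and SCC1, 51.3% of all tested regions and 52.7% of those near NRP2 passed. Between SCC6 and SCC1 these shares were 61.2% and 58.1%, and the NRP2 share of 61.1% is near them. At the canonical start the PBS signal was 29.9 and 36.8 in SCC1, 164, 139 and 175 in SCC6 and 162, 139 and 139 in SCC25. The log2 differences from SCC1 were 2.22 ± 0.17 in SCC6 (adjusted p = 1.87e-08) and 2.11 ± 0.17 in SCC25 (adjusted p = 1.37e-07), and SCC6 and SCC25 overlapped.

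The NRP2 regions that changed in SCC6 showed no single order of lines under PBS. SCC6 was highest at 72.5 kb (4.21 ± 0.21 above SCC1 and 2.87 ± 0.18 above SCC25 on the log2 scale) and low at 93.1 kb, where SCC25 was 2.63 ± 0.33 above it. At 66.4 kb the ranges of SCC6 and SCC25 overlapped (132 to 157 and 140.0 to 159), and SCC1 was at 14.3 and 10.0. SCC1 was at or under 22.3 in all 7 regions under PBS.

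A further 6 members belonged to a kind of region that was open in SCC6 alone, defined after the values were seen as a mean signal of at least 10 over the SCC6 libraries and of at most 3 over the libraries of the other lines together. They lay at VEGFA (18.7 kb), VEGFC (11.8 kb upstream), FLT1 (97.3 and 71.2 kb), KDR (18.9 kb) and NRP2 (10.0 kb). At FLT1 71.2 kb (chromosome 13, 28998000 to 28998199) the SCC6 signal was 49.5, 34.8 and 40.2 under PBS and 72.7, 77.1 and 47.3 after cetuximab, a log2 change of 0.63 ± 0.24 (adjusted p = 0.0402). The treated libraries overlapped the PBS libraries in range. The call was lost in 12 of 16 alternatives, among them edgeR (adjusted p = 0.0566) and the loss of SCC6 cetuximab replicate 1 or 2 or PBS replicate 2 or 3 (0.0900 to 0.209). The PBS level was at least 11.4-fold higher in SCC6 than in SCC1, taking 3 counts per library as the floor. All 6 regions were picked for high SCC6 signal and low signal elsewhere in these libraries, so differences between the lines at them follow from the definition.

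In the exon of KDR the SCC6 signal was 13.3, 20.7 and 18.5 under PBS and 45.5, 24.1 and 26.1 after cetuximab (log2 change 0.80 ± 0.32, adjusted p = 0.0587), and the PBS level was at least 4.83-fold higher than in SCC1. At NRP2 10.0 kb it was 43.5, 64.9 and 68.5 under PBS and 98, 79.8 and 56.9 after cetuximab, and in SCC25 0.721 to 1.77 in all libraries. All 6 had a positive log2 change in SCC6 (0.37 to 0.80), were 198 to 200 bases wide and had a GC content of 26.6% to 39.7%. Over the table, 14724 regions (12.8%) met the same definition, 80.7% of them were 198 to 200 bases wide, their median GC content was 32.0% against 47.7% elsewhere, and their median log2 change in SCC6 was 0.48. Whether these narrow regions are open chromatin of the kind found elsewhere was not tested.

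Other genes of the pathway were read at the promoter region with the highest signal, for 33 genes that were listed by role, of which 30 had such a region. Such a region lay within 1 kb of a start of any annotated transcript, which need not be the main start. That of PLXNA4 was at chromosome 7, 131830260 to 131830623, and its distance from the canonical start was not measured. Values are from the main fit, and how these calls fared in the alternatives is not given. In SCC1, 4 of 29 tested passed, near the 11.1% of all tested regions. They were higher at ARNT, the partner of HIF proteins (0.63, adjusted p = 0.0215), EGLN2, an oxygen sensor (0.81, adjusted p = 0.0237), and GIPC1, which binds the tail of NRP1 (1.17, adjusted p = 0.00160), and lower at PLXNA4, a plexin that pairs with neuropilins (-1.21, adjusted p = 0.0140). In SCC6, 5 of 28 passed, a smaller share than the 27.5% of all tested regions, with higher signal at SEMA3F, a semaphorin that binds NRP2 (1.54, adjusted p = 0.00331), and ADAMTS1 (0.49, adjusted p = 0.0369). It was lower at PLXNA1, a neuropilin partner (-0.50, adjusted p = 0.0210), EGLN1, an oxygen sensor (-0.41, adjusted p = 0.00180), and PTK2, a focal adhesion kinase (-0.38, adjusted p = 0.0209). At SEMA3F the mean SCC6 signal was 7.63 under PBS and 24.9 after cetuximab. In SCC25, limma passed 0 of 29, against 0.315% of all tested regions. In all lines together it passed 1 of 28 (PLXNA4, -0.53, adjusted p = 0.0321), against 12.2% of all tested regions.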

How the data were processed

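ATAC-seq reads had been trimmed by the authors with Trim Galore 0.5.0, aligned to hg19 with Bowtie2 2.3.2, cleared of duplicate and mitochondrial reads with Picard 2.18 and of unmapped and low-quality reads with SAMtools 1.9, and peaks called per library with MACS2 (submitters' notes and the study's methods). The deposited peak lists give fold enrichment and the −log10 of p and q. They were used here only to count libraries with a peak in a region. The deposited signal table, made by the authors over 1 merged set of regions with DiffBind, holds scaled values. In each library they are whole reads, with 0 set to 1, multiplied by 1 step, and 100% of values came out whole within 0.001. No further sample column was left out (0 unused).

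Here, log2(signal + 1) was fitted with limma 3.58.1 (trend and robust, R 4.3.3) after dropping the lowest 25% of regions by mean, separately in each line, over all lines with line as covariate, for the interaction of line and treatment, and between PBS groups. P-values were adjusted over all tested regions (Benjamini-Hochberg, 0.05). A fold change on this scale understates changes of low regions. Alternatives were edgeR 4.0.16 and DESeq2 1.42.0 on the recovered reads, other pseudocounts, filters and scalings, removal of a GC trend, and each library left out. The GC trend was removed only in the tests of treatment within a line or over all lines. The limma script was tested on simulated data. Positions come from GENCODE 44 lifted to GRCh37, by the 20 kb rule, and distances run from the Ensembl canonical start to the region's centre.

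Regions were named by rule: the own-promoter region with the highest signal of each gene, the region with the highest signal per kb away from coding starts, up to 3 regions per gene and comparison with the smallest adjusted p among those that passed (or the smallest in a line where none passed), those with a peak in every library, and the largest PBS difference per gene. Others are marked where they appear. The genes, gene lists and tests were chosen with earlier results of these data known. The sequence of the VEGFA promoter is not reported here.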

Additional observations from a re-analysis of the deposited data

Results flagged for a closer look

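The change after cetuximab differed between lines at 9 of 50 tested member regions, against 13.2% of all tested regions. The test was a line-by-treatment term in limma with Benjamini-Hochberg adjustment. In the VEGFB window the region shared by the promoters of DNAJC4 and NUDT22 passed (adjusted p = 0.0254, passing in 22 of 25 alternatives). So did the FKBP2 promoter (0.00217, 25 of 25), with a log2 change of 0.86 at both in SCC1. Removal of the GC trend was not among the alternatives of the interaction test. With it, neither SCC1 change passed in limma (adjusted p = 0.476 at DNAJC4 and NUDT22, 0.157 at FKBP2). At FLT1 the region at 185.3 kb (adjusted p = 0.000915, 25 of 25) rose in SCC6.

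At NRP2 they were the region 12.0 kb upstream (adjusted p = 0.0353, 12 of 25), the canonical start (0.0181, 22 of 25), and those at 64.0 kb (0.00906, 25 of 25), 66.4 kb (0.0379, 12 of 25), 87.2 kb (0.0217, 22 of 25) and 93.1 kb (0.00113, 25 of 25). The NRP2 regions that changed in SCC6 at 18.4, 52.1 and 72.5 kb did not pass this test (adjusted p = 0.0682, 0.113 and 0.125).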

How the results depend on the processing

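Deviations from the group means showed no clear link between same-numbered treated and PBS libraries of a line. Their correlations were -0.042 to 0.0265, and those of differently numbered libraries -0.0557 to 0.0763. With 2 or 3 libraries per group this cannot show whether the cultures were paired. With the number as a replicate block, 4 member regions passed in SCC1, 11 in SCC6 and 2 over all lines, against 2, 11 and 7 without it. In SCC1 the count was also 1 at an adjusted p under 0.01, 1 with no filter, 4 after median centring, 4 after quantile normalization, 0 with the GC trend removed and 7 with all libraries in 1 fit, and 1 to 3 with a library left out. Over all lines it was 1 at an adjusted p under 0.01 and 3 to 7 with a library left out, the lowest without SCC1 PBS replicate 1. Without any 1 of SCC6 cetuximab replicates 1 and 2 and SCC6 PBS replicate 2, it was 4. Leaving out the regions open in SCC6 alone, an alternative chosen after seeing the data, gave 11 in SCC6 (10 shared) and 6 over all lines. In SCC25 it was 0 in every alternative run. Of the 20 named changes that passed, 9 passed in every alternative and none reversed.

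Uncalled start-site changes turned sign under some settings, and the cause was not tested. At VEGFA the log2 change in SCC1 was 0.10 (centring), 0.085 (replicate block) and 0.019 (DESeq2), and -0.31 to 0.14 with a library left out, and in SCC25 -0.030 (GC) and -0.042 to 0.20. At VEGFB it was -0.061 (centring), -0.080 (quantile) and -0.010 (DESeq2) in SCC6, and -0.037 to 0.21 with a library left out, and in SCC25 -0.18 (GC) and -0.17 to 0.24. At VEGFC it was -0.0012 (GC) and -0.080 to 1.06 in SCC1, 0.032 (GC) in SCC6, and -0.17 (GC) and -0.091 to 0.28 in SCC25. At NRP2 3.1 kb it was -0.068 (replicate block), -0.28 (GC) and -0.15 to 0.37 in SCC1, and 0.0090 (edgeR), 0.0079 (DESeq2) and -0.25 to 0.11 in SCC25. At NRP1 70.3 kb in SCC6 it was -0.21 to 0.066. Few reads limit regions with 2 to 12 reads per library, and SCC1 PBS, with 2 libraries, limits every SCC1 comparison.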
